A study of Homo sapiens with 4 samples.

Results

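Lipid droplets store triglyceride inside cells, and 10 genes that coat those droplets, carry fatty acids or make and break down triglyceride were followed in the human liver cancer line PLC8024. The genes were chosen by symbol, with earlier results of these data known: PLIN2, PLIN3, HILPDA, FABP1, PNPLA2, PNPLA3, DGAT1, DGAT2, GPAM and LPIN1. Of these, 9 had a row among the 26603 genes of the deposited table, and DGAT1 was not analysed here. Messenger RNA was sequenced from 2 libraries of cells labelled control and 2 of cells labelled drug; the labels name no drug, dose or duration and report no genetic change in either group. Libraries held 28526098 to 40279560 recovered gene reads. Levels are FPKM, fragments scaled for exon length and library total, and group values are means ± SD over 2 libraries (n = 2). Since no label says that replicate libraries stem from different cultures, the p-values cover the spread among these 4 libraries, which may be technical. In RNA from whole cultures, fewer cells carrying a transcript and less of it per cell cannot be told apart.

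A lipid droplet is a core of triglyceride and sterol ester inside a single layer of phospholipid, and proteins of the perilipin family sit on that surface and control the access of lipases. Triglyceride is built by adding acyl chains to glycerol 3-phosphate in successive steps, in which GPAM acts at the first, lipins remove phosphate to give diacylglycerol and the DGAT enzymes add the last acyl chain. It is broken down again by lipases, of which PNPLA2 acts first. Hepatocytes use the same store to feed fatty acid oxidation and the export of lipoproteins.

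With drug, the cells had lower levels of FABP1, PLIN2 and HILPDA and a higher level of PLIN3. PNPLA2, GPAM, LPIN1 and DGAT2 did not pass the limma test, though DGAT2 passed as lower in both tests on recovered reads. FABP1 fell by 58.02%, PLIN2 by 47.04% and HILPDA by 38.9% of the control mean, and PLIN3 rose by 28.9%. The question set by the design is how transcript levels respond to the drug. The comparison used limma on log2(FPKM + 1), a scale on which changes of scarce transcripts appear smaller than they are, with Benjamini-Hochberg adjustment over the 11227 genes whose mean reached 1 FPKM in either group. Of the 9 genes, 8 passed that filter and 1, PNPLA3, did not. Among the 8 tested, 3 were lower and 1 was higher at an adjusted p under 0.05. Over all genes tested, 6.02% were called lower and 7.78% higher, 13.8% in either direction. Since the members were chosen with earlier results known, these shares describe the background and do not test the members. These shares depend on the fit: 873 genes were higher and 676 lower here, against 543 and 836 with TMM-scaled FPKM and 940 and 1233 with edgeR on recovered reads. With any 1 library removed, 115 to 221 were higher and 188 to 274 lower. The median log2 fold change was -0.09 for the 8 genes and 0.04 for all genes tested.

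**Figure D1:**
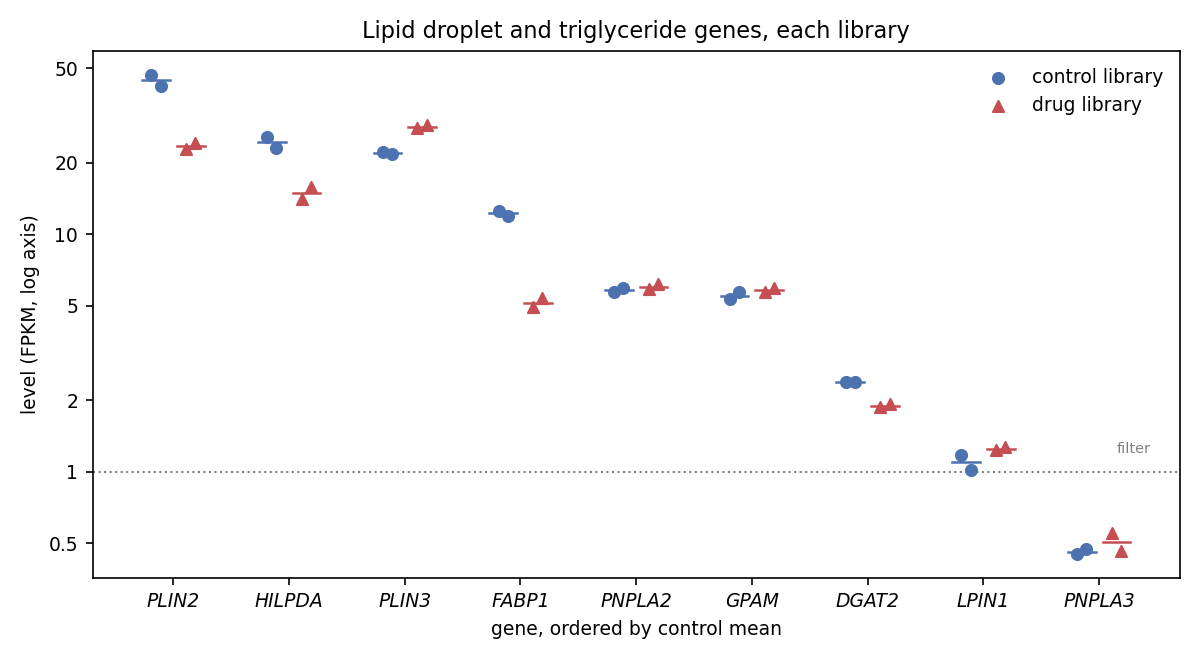
Level of each gene in FPKM on a log axis, with circles for the 2 control libraries, triangles for the 2 drug libraries and short lines for the group means. PLIN2, HILPDA and FABP1 lie lower in both drug libraries, PLIN3 lies higher, and the dotted line marks the filter of 1 FPKM, below which only PNPLA3 falls.

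PLIN2 and PLIN3 changed in opposite directions. PLIN2 (ENSG00000147872, minus strand of chromosome 9 at 19108375 to 19149290 in GRCh38) encodes perilipin 2, the main droplet coat protein of hepatocytes, which is broken down when it has no droplet to bind. Its level was 47.1 and 42.2 FPKM in the control libraries and 22.98 and 24.3 FPKM in the drug libraries. Both drug libraries lay far below both controls, and the gap between groups was several times the distance between replicates. The group means were 44.6 ± 3.41 and 23.6 ± 0.939 FPKM, a log2 fold change of -0.89 ± 0.06 SE (limma adjusted p = 0.00315). PLIN3 (ENSG00000105355, minus strand of chromosome 19 at 4838341 to 4867768 in GRCh38) encodes perilipin 3, a coat protein that moves from the cytosol onto young droplets. It was measured at 22.3 and 21.9 FPKM without drug and at 27.96 and 28.97 FPKM with it. Here both drug libraries were the higher ones and replicates lay close together. The means were 22.1 ± 0.271 and 28.5 ± 0.714 FPKM, a log2 fold change of 0.35 ± 0.03 SE (limma adjusted p = 0.00636). An antisense gene, AC027319.1, overlaps PLIN3 on the other strand, and how reads in such overlaps were counted is not given in the sources used here.

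These changes exchanged the rank of the perilipin transcripts in FPKM. PLIN2 had the highest FPKM of the 9 genes in control cells, and PLIN3 had the highest with drug. This rank depends on exon length, which in GENCODE 29 is 5086 bases for PLIN2 and 2813 for PLIN3. In the drug libraries PLIN2 still had more recovered reads (4639 and 4713) than PLIN3 (3085 and 3070). The ratio of PLIN2 to PLIN3, taken within each library and so free of that library's scaling, was 2.11 and 1.93 in control and 0.822 and 0.839 with drug. Each control ratio was above 1 and every drug ratio below it. The group means were 2.02 ± 0.130 and 0.831 ± 0.0122, and the log2 ratio fell by 1.28. An exact two-sided permutation test gave p = 0.333, the smallest p that this test can give with 2 libraries against 2, so it cannot reach 0.05 here. The remaining perilipins tested or listed were scarce. PLIN4 was at 1.099 and 1.047 FPKM without drug, against 1.103 and 1.04 FPKM with it, and did not pass (limma adjusted p = 0.988). PLIN5, the perilipin of oxidative tissue, stayed at or below 0.134 FPKM and PLIN1, that of fat cells, at or below 0.184 FPKM in every library.

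**Figure D2:**
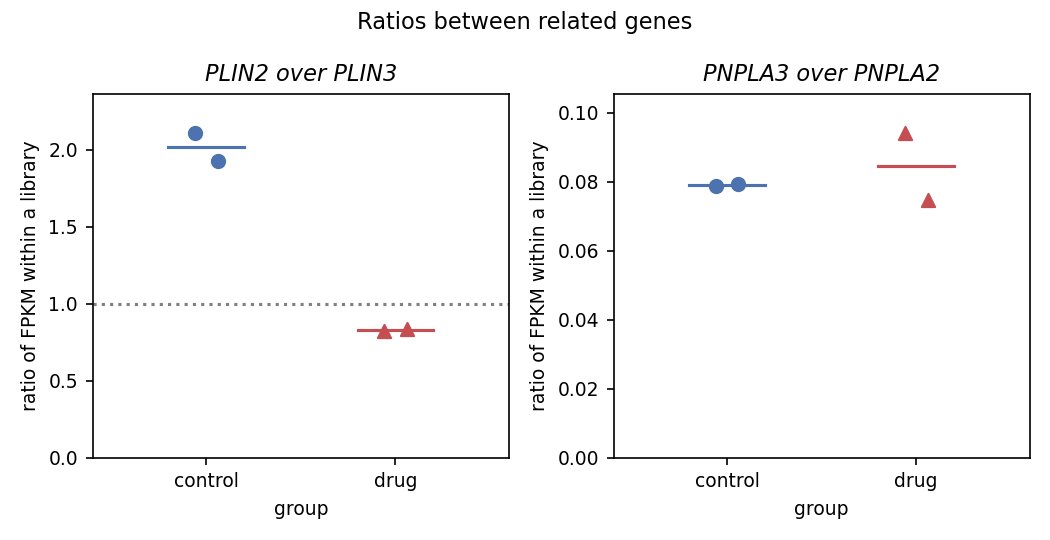
Ratio of FPKM between related genes within each library, with circles for control, triangles for drug, lines for group means and linear axes that start at 0. The PLIN2 to PLIN3 ratio lies at 2.11 and 1.93 in control and at 0.822 and 0.839 with drug, on either side of the dotted line at 1, while the PNPLA3 to PNPLA2 ratio overlaps between groups.

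FABP1 had the largest fold change of the 9 genes. FABP1 (ENSG00000163586, minus strand of chromosome 2 at 88122982 to 88128116 in GRCh38) encodes the liver fatty acid-binding protein, an abundant cytosolic carrier of long-chain fatty acids. It was at 12.6 and 11.97 FPKM without drug, against 4.92 and 5.39 FPKM with it. The groups were widely apart and each pair of replicates was close. The means were 12.3 ± 0.439 and 5.16 ± 0.332 FPKM, a log2 fold change of -1.11 ± 0.05 SE (limma adjusted p = 0.00147), and the ratio of means was 2.38-fold lower. On the scale of recovered reads, where no constant is added, edgeR gave a log2 fold change of -1.29 for FABP1. The reads behind it were 868 and 1117 without drug, and 479 and 504 with it. The authors' deposited table marks FABP1 alone among the 9 genes as down; every gene it marks so has a log2 fold change below -1. By the authors' deposited table, 5 of the 9 genes had an adjusted p under 0.05, PLIN3 as higher and FABP1, PLIN2, HILPDA and DGAT2 as lower. Of all 26603 genes in the authors' deposited table, 3.18% were higher and 4.03% lower by that threshold. These shares include genes below 1 FPKM. Among the 11227 genes above the filter, edgeR called 8.37% higher and 11.0% lower.

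HILPDA fell by less than PLIN2 in these libraries. HILPDA (ENSG00000135245, plus strand of chromosome 7 at 128455849 to 128458418 in GRCh38) encodes a small droplet protein that is induced by hypoxia and by fatty acids and inhibits PNPLA2. Its level was 25.8 and 23.1 FPKM without drug, against 14.1 and 15.8 FPKM with it. Both drug libraries were below both controls. The means were 24.4 ± 1.86 and 14.9 ± 1.21 FPKM, a log2 fold change of -0.67 ± 0.07 SE (limma adjusted p = 0.00906). The call was lost by a narrow margin without control library 1 (adjusted p = 0.0505) and without the filter on low values (0.0556). Non-coding genes AC010655.2 and AC010655.4 overlap HILPDA exons on the same strand, and AC010655.2 was at or below 0.053 FPKM in every library.

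Stretches before the RefSeq start sites of PLIN2 and FABP1 are shown because these genes had the largest falls, and that of PLIN3 because it rose. Start sites and sequences are those of RefSeq in GRCh38.p14, which had entries for 6 of the 10 genes (PLIN2, PLIN3, FABP1, PNPLA2, GPAM and LPIN1). Each is written 5′ to 3′ on the strand of its gene. All but the shorter PLIN2 stretch run from base -250 counted from the start site up to the first base that GENCODE 29 places in an exon. The shorter PLIN2 stretch covers bases -81 to -52. The RefSeq start of PLIN2 lies inside the range given for the gene above, because GENCODE 29 also holds PLIN2 transcripts that begin further 5′, and the longer PLIN2 stretch is intronic in the coding one of these. The shorter PLIN2 stretch lies in the first exon of another PLIN2 transcript. Capitals mark ACGTG, the core of the hypoxia response element, in PLIN2, the nuclear receptor half-site AGGTCA, read on the other strand as TGACCT, in FABP1, and the GC box GGGCGG in PLIN3.
PLIN2, chr9:19127577-19127742, minus strand: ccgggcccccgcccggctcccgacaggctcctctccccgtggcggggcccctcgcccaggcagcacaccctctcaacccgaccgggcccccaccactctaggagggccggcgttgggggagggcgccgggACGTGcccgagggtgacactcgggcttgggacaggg
PLIN2 around its E-box, chr9:19127544-19127573, minus strand: gctgccgcgggtCACGTGctgcggaggctt
FABP1, chr2:88128117-88128312, minus strand: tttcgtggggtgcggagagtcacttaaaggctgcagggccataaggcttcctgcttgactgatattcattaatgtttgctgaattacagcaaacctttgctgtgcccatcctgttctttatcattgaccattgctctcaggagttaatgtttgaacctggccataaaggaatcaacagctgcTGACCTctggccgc
PLIN3, chr19:4867769-4867917, minus strand: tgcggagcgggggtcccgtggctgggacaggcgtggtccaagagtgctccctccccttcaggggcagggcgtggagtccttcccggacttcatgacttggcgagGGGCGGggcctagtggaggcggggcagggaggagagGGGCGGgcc

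The PLIN2 window of 250 bases before the start holds ACGTG at base -120 and again in the E-box CACGTG at base -69, which contains that core on both strands. ACGTG, searched on both strands, is in 18.5% of the 35116 RefSeq promoter windows of this length and CACGTG in 6.34%. Neither was found in the windows of PLIN3, FABP1, PNPLA2, GPAM or LPIN1. The AGGTCA match of FABP1 begins at base -68, and PNPLA2 has one at base -239; 12.1% of windows hold it. TATAAA, on either strand, was found at base -31 of FABP1 and -29 of PLIN2, against 10.7% of windows. GGGCGG, on either strand, was found in the windows of PLIN2, PLIN3, PNPLA2, GPAM and LPIN1 and in 42.6% of all windows. The sterol regulatory element TCACNCCAC was found at base -153 of PNPLA2 and in 0.883% of windows. These are matches of letters, not measured binding sites.

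PNPLA2 did not pass the test, and PNPLA3 was too low to be tested. PNPLA2 (ENSG00000177666, chromosome 11 at 818902 to 825573 in GRCh38) encodes adipose triglyceride lipase, which takes the first acyl chain off stored triglyceride. Its level was 5.71 and 5.92 FPKM without drug, against 5.86 and 6.17 FPKM with it. The groups overlapped. The log2 fold change was 0.04, with a 95% interval from -0.08 to 0.16 (limma adjusted p = 0.578). PNPLA3 (ENSG00000100344, chromosome 22 at 43923739 to 43964488 in GRCh38), a close relative of PNPLA2 on liver droplets and a target of SREBP-1c, was at 0.450 and 0.4704 FPKM without drug, against 0.552 and 0.461 FPKM with it. Its reads numbered 41 and 58 without drug, and 71 and 57 with it, and drug library 2 lay between the controls. It was below the filter, and part of an exon lies within an exon of SAMM50 on the same strand, which was at 8.20 to 8.93 FPKM. The ratio of PNPLA3 to PNPLA2 was 0.0788 and 0.0794 in control and 0.0942 and 0.0747 with drug, which overlap (exact permutation p = 1.0).

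Partners of PNPLA2 were measured beside it. ABHD5, its activator, was at 3.87 and 3.53 FPKM without drug, against 3.89 and 4.18 FPKM with it (limma adjusted p = 0.328). G0S2, its inhibitor, was at 1.04 and 1.27 FPKM without drug, against 1.22 and 1.06 FPKM with it (limma adjusted p = 0.959). ABHD5 was slightly higher in both drug libraries than in either control, and G0S2 overlapped. Of the 10 tested genes of the lipolysis list, limma called none higher and 1 lower, with a median log2 fold change of -0.07. Of all genes tested, it called 7.78% higher and 6.02% lower. The gene called lower was ABHD6, a monoacylglycerol lipase, from 3.89 ± 0.0759 to 3.03 ± 0.142 FPKM (limma adjusted p = 0.0352). Removing any 1 library took this call away (adjusted p from 0.0919 to 0.149). With edgeR on recovered reads, 5 genes of this list were lower and none higher, where edgeR called 11.0% of all genes tested lower and 8.37% higher. Among these 5 was AADAC, at 1.45 ± 0.143 FPKM in control, which was 44.8% lower with drug, against 22.2% for ABHD6. AADAC passed with edgeR (adjusted p = 0.0364) but not with limma (adjusted p = 0.0714).

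Of the synthesis enzymes among the 9 genes, DGAT2, GPAM and LPIN1, none passed in limma, though DGAT2 passed as lower in both count tests. DGAT2 (ENSG00000062282, chromosome 11 at 75759512 to 75801535 in GRCh38) encodes an acyltransferase of the last step that works at the endoplasmic reticulum and on droplets. Its level was 2.39497 and 2.39523 FPKM without drug, against 1.87 and 1.92 FPKM with it. Both drug libraries were below both controls, which were almost equal. The log2 fold change was -0.23 ± 0.06 SE, with a 95% interval from -0.39 to -0.07, and it missed the limma threshold (adjusted p = 0.0749). On recovered reads, 540 and 731 in control against 595 and 588 with drug before scaling, DGAT2 passed as lower with edgeR (log2 fold change -0.38, adjusted p = 0.0101) and with DESeq2 (adjusted p = 0.0103). It has an adjusted p of 0.0123 in the authors' deposited table.

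GPAM (ENSG00000119927, chromosome 10 at 112149864 to 112215377 in GRCh38) encodes the mitochondrial glycerol-3-phosphate acyltransferase. It was at 5.33 and 5.69 FPKM without drug, against 5.72 and 5.93 FPKM with it. The lower drug library was just above the higher control. The log2 fold change was 0.07, with a 95% interval from -0.06 to 0.20 (limma adjusted p = 0.383). LPIN1 (ENSG00000134324, chromosome 2 at 11677595 to 11827409 in GRCh38) encodes lipin 1, a phosphatidate phosphatase that also acts as a transcriptional coactivator. It was at 1.18 and 1.02 FPKM without drug, against 1.23 and 1.27 FPKM with it. The control libraries were further apart than the nearest control and drug libraries. The log2 fold change was 0.10, with a 95% interval from -0.13 to 0.33 (limma adjusted p = 0.483). In 7 of the 8 tested genes the control and drug libraries did not overlap, as in 63.5% of all genes tested.

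**Figure D3:**
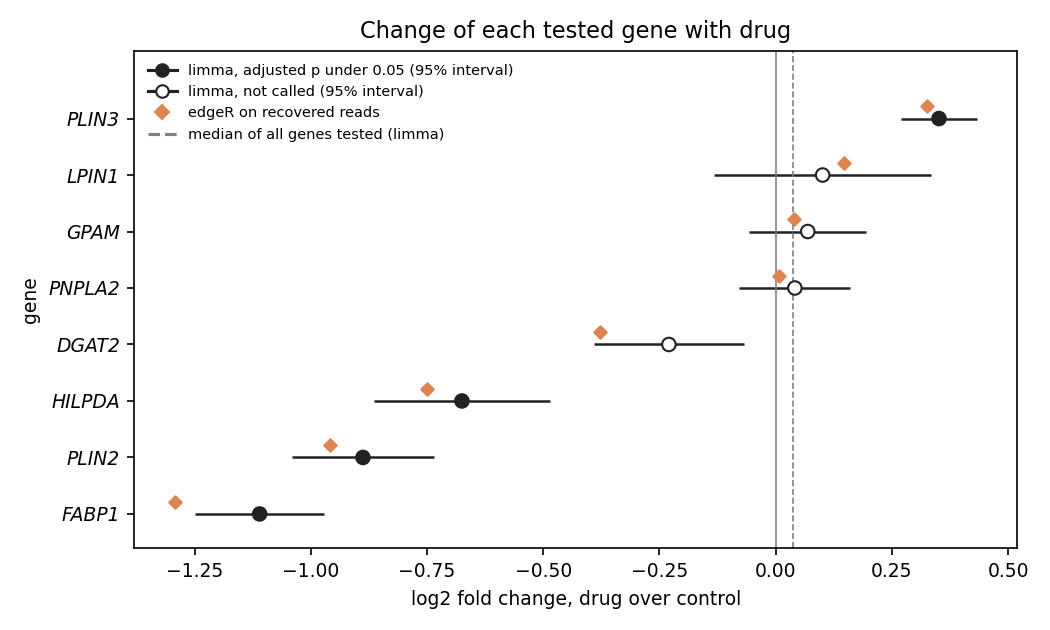
Log2 fold change of drug over control for the 8 tested genes, with limma values as circles and their 95% intervals as lines, filled where the adjusted p was under 0.05, and edgeR values on recovered reads as diamonds. FABP1, PLIN2 and HILPDA lie left of 0 and PLIN3 right of it, and the open circle of DGAT2 lies at -0.23 with its edgeR value at -0.38.

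Other genes of triglyceride synthesis changed in both directions. Of 11 tested, 2 rose and 1 fell, with a median log2 fold change of -0.02, where 7.78% of all genes tested were called higher and 6.02% lower. GPAT3, an acyltransferase of the endoplasmic reticulum that acts at the same step as GPAM, was at 10.8 and 10.6 FPKM without drug, against 14.1 and 13.3 FPKM with it (limma adjusted p = 0.01203). Its relative GPAT4 went from 10.5 ± 0.0885 to 11.7 ± 0.326 FPKM and did not pass (adjusted p = 0.0667). AGPAT3, an acyltransferase of the second step, rose from 11.5 ± 0.00481 to 13.6 ± 0.171 FPKM (limma adjusted p = 0.0166). GK, the glycerol kinase that makes glycerol 3-phosphate, was at 14.2 and 13.7 FPKM without drug, against 10.2 and 10.6 FPKM with it (limma adjusted p = 0.00724). LPIN2 exceeded LPIN1 in level by far and stayed at 23.2 and 23.5 FPKM without drug, against 22.8 and 22.99 FPKM with it (limma adjusted p = 0.576). AGPAT3 did not pass once any 1 library was removed (adjusted p from 0.0726 to 0.0831). GPAT3 did not pass on removal of control 1, control 2 or drug 1 (up to 0.0691), nor GK on removal of control 1 (adjusted p = 0.0514).

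Most genes of the droplet coat and biogenesis list, which includes PLIN4, did not pass the test. Of 12 tested, 1 rose and 2 fell, with a median log2 fold change of -0.01, where 7.78% of all genes tested were called higher and 6.02% lower. METTL7A, a methyltransferase-like protein found on droplets, was at 8.23 and 7.74 FPKM without drug, against 4.82 and 4.34 FPKM with it (log2 fold change -0.69 ± 0.06 SE, limma adjusted p = 0.00588). It kept its call with each library left out. ACSL3, an acyl-CoA synthetase of growing droplets, fell from 8.73 ± 0.238 to 7.33 ± 0.148 FPKM (limma adjusted p = 0.03003). FITM2, which partitions triglyceride into budding droplets, rose from 6.06 ± 0.165 to 7.49 ± 0.179 FPKM (limma adjusted p = 0.0223). Neither ACSL3 nor FITM2 passed once any 1 library was removed (adjusted p up to 0.132 and 0.106).

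Genes of fatty acid uptake, binding and activation changed in both directions, with 3 of 8 tested higher and 3 lower. Over all genes tested, 7.78% were called higher and 6.02% lower, and this list was chosen with earlier results of these data known. Their median log2 fold change was -0.06. FABP5, the epidermal fatty acid-binding protein and the most abundant FABP transcript here, was at 105.3 and 105.2 FPKM without drug, against 66.7 and 67.4 FPKM with it (log2 fold change -0.64 ± 0.02 SE, limma adjusted p = 0.000841). So FABP1 and FABP5 were both lower in both drug libraries, while FABP3, FABP4 and FABP7 were below the filter. ACSL4, an acyl-CoA synthetase that prefers arachidonate, fell from 151.5 ± 1.85 to 118.7 ± 2.49 FPKM (limma adjusted p = 0.00445). DBI, the acyl-CoA-binding protein, fell from 73.6 ± 3.06 to 60.4 ± 1.05 FPKM (limma adjusted p = 0.0142). The risers were CAV1, a caveolar protein that also reaches droplets (12.7 ± 0.343 to 20.5 ± 0.873 FPKM), ACSL5 (6.45 ± 0.525 to 8.704 ± 0.0288 FPKM) and the fatty acid transporter SLC27A4 (11.2 ± 0.125 to 13.6 ± 0.505 FPKM). Their limma adjusted p-values were 0.00293, 0.0196 and 0.0185. FABP5, ACSL4 and CAV1 kept their calls with each library left out. SLC27A4 did not pass once any 1 library was removed (up to 0.0917). ACSL5 and DBI did not pass on removal of drug 1, drug 2 or control 1 (up to 0.0843 and 0.0715).

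Of 8 tested genes of triglyceride export, none rose, 2 fell and 6 were not called, with a median log2 fold change of -0.02. Among all genes tested, 7.78% were called higher and 6.02% lower. MTTP, which loads triglyceride onto apolipoprotein B, was at 34.8 and 35.5 FPKM without drug, against 23.55 and 23.50 FPKM with it. Its log2 fold change was -0.56 ± 0.03 SE (limma adjusted p = 0.00147). APOC3, an inhibitor of triglyceride clearance, was at 5.52 and 6.54 FPKM without drug, against 4.52 and 4.37 FPKM with it (limma adjusted p = 0.0446). MTTP kept its call with each library left out, while APOC3 did not pass once any 1 was removed (adjusted p from 0.05103 to 0.155) or with edgeR on recovered reads (0.0784). APOB itself was listed at no more than 0.0384 FPKM in any library, and SURF4 at 0 in 3 of the 4, though most cells use SURF4. BSCL2 of the droplet coat and biogenesis list (at most 0.155 FPKM in any library) and AGPAT1 of the synthesis list (at most 0.580 FPKM) were also below the filter. Whether the counting of reads shaped these low values was not tested.

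Of 17 tested transcription factors and coactivators of lipid storage, 2 rose and 2 fell, with a median log2 fold change of 0.03. SREBF1, whose product SREBP-1 drives fatty acid and triglyceride synthesis, was at 6.35 and 6.44 FPKM without drug, against 4.18 and 4.23 FPKM with it (limma adjusted p = 0.0050). PPARA, the fatty acid receptor whose targets include PLIN2 and FABP1, fell from 3.69 ± 0.131 to 2.97 ± 0.00219 FPKM (limma adjusted p = 0.0482). The hepatocyte factors CEBPA (10.1 ± 0.680 to 12.5 ± 0.00823 FPKM) and HNF4A (22.4 ± 0.186 to 25.5 ± 0.0976 FPKM) rose, with limma adjusted p-values of 0.0284 and 0.02099. PPARA and HNF4A did not pass once any 1 library was removed (adjusted p up to 0.188 and 0.104), nor CEBPA on removal of drug 1, drug 2 or control 1 (up to 0.110), and SREBF1 passed in each case. Over the 6 lists together, 66 genes were tested, of which 8 rose and 11 fell. That is to be read beside the 7.78% and 6.02% of all genes tested, and the lists were chosen with earlier results of these data known. With any 1 library removed, 1 to 3 of these list genes were higher and 5 to 7 lower, and with no filter on low values 1 was higher and 6 were lower.

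**Figure D4:**
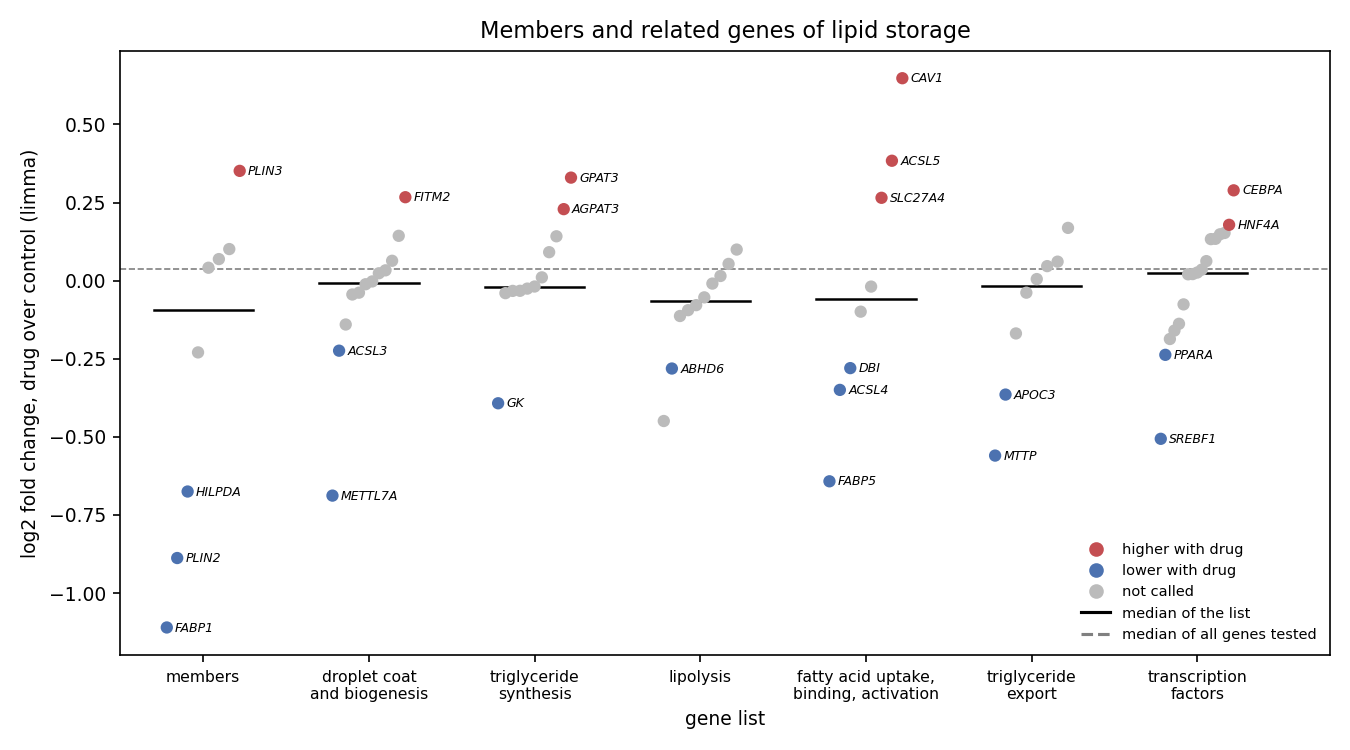
Log2 fold change of drug over control in limma for each tested gene, by list, with red for genes called higher, blue for genes called lower, grey for the rest, black lines for list medians and a dashed line for the median of all genes tested. FABP1 at -1.11 and PLIN2 at -0.89 lie below every point of the 6 lists, whose lowest is METTL7A at -0.69, just under HILPDA at -0.67.

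Across the 9 genes, the order of levels per exon length in control cells was PLIN2, HILPDA, PLIN3, FABP1, PNPLA2, GPAM, DGAT2, LPIN1 and PNPLA3, and no neighbours in it had overlapping library ranges. With drug the order was PLIN3, PLIN2, HILPDA, PNPLA2, GPAM, FABP1, DGAT2, LPIN1 and PNPLA3, in which PNPLA2 and GPAM overlapped. In FPKM, FABP1 thus went from above PNPLA2 and GPAM to below both. This order depends on exon length, annotated as 2470 bases for FABP1, 3843 for PNPLA2 and 9808 for GPAM. In control libraries FABP1 had 868 and 1117 recovered reads, above PNPLA2 (624 and 876) but already below GPAM (1491 and 2154). With drug its 479 and 504 reads were below those of PNPLA2 (904 and 915) and GPAM (2259 and 2252). The order per transcript molecule was not tested. As a check of the cell label, 8 of 10 hepatocyte lineage markers were at 1 FPKM or more in a group, and TTR and APOB were not. The most abundant were FGB, KRT18, KRT8 and TF. ALB was low, at 3.19 ± 0.0593 FPKM in control and 1.31 ± 0.00616 FPKM with drug. Of the 8, limma called ALB, FGB, TF and APOA1 lower and KRT8, KRT18 and HNF4A higher, and SERPINA1 did not pass. The summed level of all 10 was 987 and 993 FPKM in control and 818 and 816 FPKM with drug. FGB was the largest part of that sum and went from 552 ± 4.50 to 285 ± 14.9 FPKM. KRT18 went up from 161 ± 4.28 to 227 ± 8.40 FPKM and KRT8 from 133 ± 5.30 to 175 ± 6.65 FPKM. The sum therefore does not describe the markers as a group. Fat cell markers with a row (PLIN1, CIDEC and FABP4) summed to at most 1.16 FPKM in any library, and all 5 fibroblast markers were below the filter. Among leukocyte and endothelial markers, LYZ (180.5 to 286.7 FPKM) and PECAM1 (2.09 to 4.66 FPKM) were present, and LYZ was higher and PECAM1 lower with drug. CD14, VWF and CDH5 were below 1 FPKM, and the part of these markers in the changes above was not tested.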

How the data were processed

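The deposited table gives per-library FPKM, a unit read off the numbers themselves, as no header states it: the median ratio of implied to GENCODE 29 exon length was 1.00. The authors' group means of normalized reads (a signal: reads over library size factors) and the authors' log2 fold changes and p-values are given per the file headers. Demultiplexing with bcl2fastq and build hg38 come from the submitters' processing notes; the aligner, counter and annotation used are unknown: they are not given in the sources that were used. Libraries were TruSeq stranded mRNA, per the labels. Each column was tied to its sample through the name and replicate number it bears; the control columns bear a short name without the word control, and their reads came out whole against the column headed as the control mean.

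FPKM and group means together gave back each library's reads, 100% of them whole to within 0.1 read. Drug was compared with control in limma 3.58.1 (trend) on log2(FPKM + 1), for genes with a group mean of at least 1 FPKM, at a Benjamini-Hochberg adjusted p of 0.05. The recovery and the fit were tested on simulated data. Alternatives were pseudocounts of 0.1 and 0.01, no filter, FPKM rescaled with TMM factors, edgeR 4.0.16 and DESeq2 1.42.0 on recovered reads, a replicate block, and removal of each library in turn. Members and lists were chosen with earlier results of these data known. Named genes are all members, up to 4 called genes per list and direction, and the partners PLIN4, PLIN5, ABHD5, G0S2, GPAT4 and LPIN2. Other genes, such as PLIN1, AADAC, FABP3, FABP7, APOB, SURF4, BSCL2, AGPAT1 and SAMM50, were named after their values were seen. Motifs were searched in 250 bases before each RefSeq start. R 4.3.3, Python 3.11.15 and matplotlib 3.10.9 were used.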

Additional observations from a re-analysis of the deposited data

How the results depend on the processing

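PLIN2, PLIN3 and FABP1 kept their direction and call in all 11 alternative fits, and PNPLA2, GPAM and LPIN1 stayed uncalled in all of them. HILPDA lost its call without control 1 and without the filter, and DGAT2 gained one with edgeR and DESeq2. Members called numbered 1 higher with any library left out, and 2 to 3 lower. Counts over all genes moved more: 170 higher and 214 lower with no filter, 543 higher with TMM-scaled FPKM, 1233 and 1105 lower with edgeR and DESeq2, and 115 to 221 higher and 188 to 274 lower with a library left out. Of all calls 56.4% were higher, but 39.4% with TMM-scaled FPKM, 43.3% with edgeR and 40.9% with DESeq2. With the replicate block 474 genes were higher, 7 list genes were lower, and no member changed its call. Same-numbered libraries showed no clear shared deviation (r = 0.03 between their deviations across 11227 genes, which are not independent replicates). With groups of 2, this cannot show whether they were made as pairs. List genes called were 1 higher and 6 lower with no filter, and 1 to 3 higher and 5 to 7 lower with a library left out. Of 23 named genes that passed, 9 did so in every fit; removing control 1 took away 14 calls, control 2 took 9, drug 1 took 12 and drug 2 took 11, and none of the named genes that passed changed direction. The log2 ratio of PLIN2 to PLIN3 ran from -1.35 to -1.22 with a library left out, and that of PNPLA3 to PNPLA2 from -0.08 to 0.25. The ratio of DGAT2 to DGAT1 was not run. The cause of the moved counts was not tested, and a fit without a library also has less residual information. Groups of 2 limit every test here.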
